A study of Mus musculus with 17 samples.

Results

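Malat1 and Neat1, a pair of nuclear long noncoding RNAs, were followed in sorted splenic regulatory T cells (Tregs) with added, deleted or unaltered Nfkbid. They were taken by name and gene ID and are 2 of the 47643 rows of the deposited expected-count table. Of the 17 libraries, 6 came from NOD-60A Tg+ mice (Nfkbid transgenic), 5 from NOD Nfkbid-KO mice (Nfkbid knockout) and 6 from control NOD mice. All 3 groups are on the NOD background, a strain prone to autoimmune diabetes, and carry a Foxp3-GFP reporter by which CD4+ enriched spleen cells were sorted. Nfkbid encodes IkBNS, an IkB family member that acts in the nucleus on NF-kB target genes. Transgenic libraries were made from single samples, whereas knockout and control libraries are stated in the series text to pool RNA of 2 samples, though the library names of control replicates 3 and 6 may denote other pool sizes. Genotype and pooling therefore cannot be told apart in any comparison with the transgenic group. The promoter that drives the transgene, the knockout allele, and the age and sex of the mice are not given in the sources used here. All 17 libraries carry the same batch label. The names of the count columns also hold running numbers, and these follow genotype in part. Transgenic and knockout libraries fall in separate runs of numbers. Control replicates 1 and 2 are numbered within the transgenic run, and control replicates 3 to 6 outside both runs. Whether these numbers mark separate rounds of library preparation was not tested. The labels do not tie libraries to animals, and p-values therefore reflect the spread between these libraries.

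Malat1 is an abundant transcript that stays in the nucleus and gathers in speckles, the bodies that store splicing factors. It carries no poly(A) tail: RNase P cuts its primary transcript and releases a small tRNA-like RNA called mascRNA, and the new 3′ end folds into a triple helix of U-rich tracts with an A-rich tract. Neat1 is made as a long form, which is the scaffold of paraspeckles and has a 3′ end of the same kind, and as a short form that ends in a poly(A) tail. The libraries were prepared from RNA bound to oligo-dT beads, a step that selects poly(A) tails.

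Malat1 (ENSMUSG00000092341) lies on chromosome 19 from 5795690 to 5802672 and Neat1 (ENSMUSG00000092274) from 5824708 to 5845478 in GRCm38, both on the minus strand and annotated as lincRNA, with 22.0 kb between them. Their 3′ ends are shown because they bear on how each RNA can be captured. The sequences come from the GENCODE M21 transcripts on GRCm38, all on the minus strand and written 5′ to 3′ with T for U. The Malat1 stretch is positions 6571 to 6752 of its 6983-base transcript (chr19:5795921-5796102). Its capitals mark the longest stretch shared with the Neat1 end, which holds a U-rich tract, and the A-rich tract, and the mascRNA part follows. The Neat1 long stretch is the last 100 bases of the 20771-base form (chr19:5824708-5824807), with the same tracts in capitals. The Neat1 short stretch is the last 60 bases of the 3004-base form (chr19:5842307-5842366), with the polyadenylation signal AATAAA in capitals.
Malat1: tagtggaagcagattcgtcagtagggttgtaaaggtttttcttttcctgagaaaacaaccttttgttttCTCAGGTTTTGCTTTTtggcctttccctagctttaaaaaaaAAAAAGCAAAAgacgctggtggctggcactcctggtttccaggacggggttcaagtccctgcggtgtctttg
Neat1 long: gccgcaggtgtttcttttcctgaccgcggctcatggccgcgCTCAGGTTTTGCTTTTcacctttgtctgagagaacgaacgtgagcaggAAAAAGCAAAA
Neat1 short: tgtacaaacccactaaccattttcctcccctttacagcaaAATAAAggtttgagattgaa
The A-rich tract AAAAAGCAAAA, 11 bases, occurs once in Malat1, where the annotated transcript runs on for 292 bases, and once in the long Neat1 form, where it is the very end. On the sense strand it is present in 618 of 141767 annotated transcripts, or 0.436%. The shared stretch CTCAGGTTTTGCTTTT, 16 bases, is present in 2 of the 141767, the Malat1 and long Neat1 transcripts themselves. The short form of Neat1 has neither, and its AATAAA begins 20 bases from the end. The longest run of A was 12 bases in the Malat1 transcript and 7 in the long Neat1 form. These are descriptions of the annotation, and the table does not separate the forms of Neat1.

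Library totals were 3133388 to 4726615 counts. Some libraries stood apart within their group in a chi-square of counts per degree of freedom between pairs of libraries. Transgenic replicate 1 had 12.6 to 23.8 against the other 5 transgenic libraries, which had 2.63 to 6.04 among themselves. Knockout replicates 2 and 5 had 29 to 32.1 against knockout replicates 1 and 4, and knockout replicates 2, 3 and 5 had 13476 to 13802 rows above 0, against 15039 to 15931 in replicates 1 and 4. Levels are given as counts per 1000000 counts of the library (CPM). Fold changes were fitted with an added factor per library (TMM, 0.859 to 1.09) and can differ in sign from a difference of mean CPM where both are small. The row of Nfkbid itself held 7.28 to 10.3 CPM in transgenic libraries, 2.31 to 8.75 CPM in knockout libraries and 3.2 to 5.74 CPM in control libraries, and whether it counts Nfkbid reads was not tested, so groups are those of the labels. Foxp3, the transcription factor that defines Tregs, had 221.7 to 382.2 CPM over the 17 libraries. Summed over each list of markers of other cells, erythroid markers reached 0.937 CPM at most and megakaryocyte markers 0.27 CPM. CD8 T cell and dendritic cell markers reached 18.5 CPM each, NK cell markers 17.2 CPM, myeloid markers 72.0 CPM and stroma and endothelium markers 195.9 CPM. Some markers of T cells themselves were also low: Cd3e reached 3.2 CPM at most and Trac 7.56 CPM, whereas Cd3d held 613.8 to 889.2 CPM. Low rows therefore do not show that other cells were few. The 13 Treg markers had summed levels of 2514 to 2693 CPM in transgenic libraries, 2385 to 2624 CPM in knockout libraries and 2363 to 2936 CPM in control libraries. These sums hide differences of single markers, and the list was chosen with earlier results known. Of 9 rows tested in the fit below, 3 were called higher and 1 lower in transgenic against control, where 7.4% of all rows were called. In transgenic against knockout 3 were called higher and 1 lower, where 10.7% of all rows were called. In knockout against control 1 was called higher and 1 lower, where 1.89% of all rows were called. The 5 B cell markers had summed levels of 154.2 to 282.5 CPM in transgenic libraries, 145.8 to 268.3 CPM in knockout libraries and 211.9 to 328.7 CPM in control libraries, and Cd79b was at 0 in all. Row names in the table are not all reliable: the nearly universal B2m, Tmsb4x and Pkm were at 0 in every library, Actb at 0 to 7 counts and Eef1a1 at 0 to 2. Malat1 and Neat1 lie near the start of their chromosome. When exons on chromosome 19 were moved in proportion to position, counts tracked exon overlap best at 0.35 kb per Mb (Spearman's rho 0.634 across 1063 rows, against 0.553 unmoved and 0.578 at the same slope in the other direction). At that slope the move is 2.0 kb for both genes and leaves 71.0% of the Malat1 exon bases and 90.2% of the Neat1 exon bases on their own gene. A move of 6.0 kb would leave 14.1% and 71.1%. Other rows named below carry the table's names, and whether each counts that gene was not tested. Several lie far from the start of their chromosome, where a move in proportion to position would be larger. Among them are Firre at 50.6 Mb, Rpp25 at 57.5 Mb and Taf15 at 83.5 Mb.

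Malat1 was among the most abundant rows in all 3 groups. Apart from mitochondrial rows it ranked first in 14 of the 17 libraries and was otherwise at rank 2, where the Zbtb7a row, at 9073 to 12421 CPM over all libraries, was the other leading row. Neat1 ranked 19 to 132. Per kb of exon, Malat1 averaged 1738 ± 222.9 CPM in transgenic (SD, n = 6), 2206 ± 256.7 in knockout (SD, n = 5) and 2125 ± 321.3 CPM in control libraries (SD, n = 6). Neat1 averaged 79.7 ± 19.9, 95.0 ± 4.24 and 101.7 ± 9.9 CPM per kb in the same 3 groups. The ratio of the 2 levels per kb, Malat1 over Neat1, averaged 23.7 ± 9.73 in transgenic, 23.2 ± 2.59 in knockout and 21.3 ± 5.74 in control libraries. It is taken over the full 20.8 kb of the long form, so it would be smaller if most counts came from the short one, which was not tested.

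Malat1 levels were lowest on average in transgenic Tregs, but the groups overlapped. The 6 transgenic libraries ran from 9802 to 14550 CPM with a median of 12013. The 5 knockout libraries held 13204, 16351, 14169, 17766 and 15527 CPM. The 6 control libraries ran from 12462 to 18956 CPM with a median of 14380. Of the 6 transgenic libraries, 4 lay below every control and 5 below every knockout library. Transgenic replicate 1, at 14550 CPM, lay inside the range of both other groups, and control replicate 6 was the highest of all 17 libraries.

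For transgenic against control the Malat1 log2 fold change was -0.22 (SE 0.14, 95% interval -0.5 to 0.07), from means of 12134 ± 1556 CPM in transgenic (SD, n = 6) and 14841 ± 2244 CPM in control libraries (SD, n = 6). The quasi-likelihood test of edgeR with Benjamini-Hochberg adjustment did not call it (adjusted p = 0.43). For knockout against control it was 0.19 (SE 0.14, interval -0.1 to 0.49, edgeR adjusted p = 0.423), with a knockout mean of 15404 ± 1793 CPM (SD, n = 5). For transgenic against knockout it was -0.41 (SE 0.14, interval -0.71 to -0.11), which had an unadjusted edgeR p of 0.00894 and an adjusted p of 0.0688. That difference was past the threshold of 0.05 without transgenic replicate 1 (-0.52, edgeR adjusted p = 0.00734), without knockout replicate 1 (-0.49, adjusted p = 0.0241) and without control replicate 6 (-0.41, adjusted p = 0.0437), which enters through the shared spread. DESeq2 (-0.42, adjusted p = 0.0461), upper quartile factors (-0.45, adjusted p = 0.0466) and library totals alone (-0.34, adjusted p = 0.0368) also called it. It was not called in a fit of the 2 groups alone (-0.42, edgeR adjusted p = 0.12). Nor was it called without knockout replicates 2, 3 and 5 (-0.26, edgeR adjusted p = 0.412), which left 2 knockout libraries. In all, 6 of 28 alternatives called the difference and 22 did not. Those 22 include limma with voom (-0.41, adjusted p = 0.0546) and each fit without 1 of transgenic replicates 2 to 6 (edgeR adjusted p = 0.109 to 0.154).

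Neat1 also averaged lowest in transgenic Tregs, and there the libraries were most unlike each other. The 6 transgenic libraries ran from 900.8 to 2057 CPM with a median of 1764. The 5 knockout libraries held 1889, 2048, 1920, 1925 and 2088 CPM. The 6 control libraries ran from 1721 to 2282 CPM with a median of 2147. Of the transgenic libraries, 3 lay below every control and 4 below every knockout library, and replicate 5 was lowest. The coefficient of variation was 24.9% in transgenic, 4.46% in knockout and 9.74% in control libraries. For Malat1 it was 12.8%, 11.6% and 15.1% in the same 3 groups. Transgenic libraries are single samples and the others pools, so genotype and pooling cannot be told apart in these spreads.

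For transgenic against control the Neat1 log2 fold change was -0.27 (SE 0.15, 95% interval -0.59 to 0.05, edgeR adjusted p = 0.365), from means of 1655 ± 412.5 CPM in transgenic (SD, n = 6) and 2113 ± 205.7 CPM in control libraries (SD, n = 6). For knockout against control it was 0.05 (SE 0.16, interval -0.28 to 0.39, edgeR adjusted p = 0.868), with a knockout mean of 1974 ± 88.0 CPM (SD, n = 5) that lay below the control mean before TMM scaling. For transgenic against knockout it was -0.32 (SE 0.16, interval -0.66 to 0.01, edgeR adjusted p = 0.215). Without transgenic replicate 5 the differences were -0.14 against control and -0.19 against knockout. Without knockout replicates 2, 3 and 5 the difference of transgenic from knockout was -0.11 (edgeR adjusted p = 0.798). The knockout difference changed sign, to -0.10, with library totals alone, a scaling that moved the median of all rows by -0.13 in that comparison, and to -0.01 without knockout replicate 5.

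**Figure D1:**
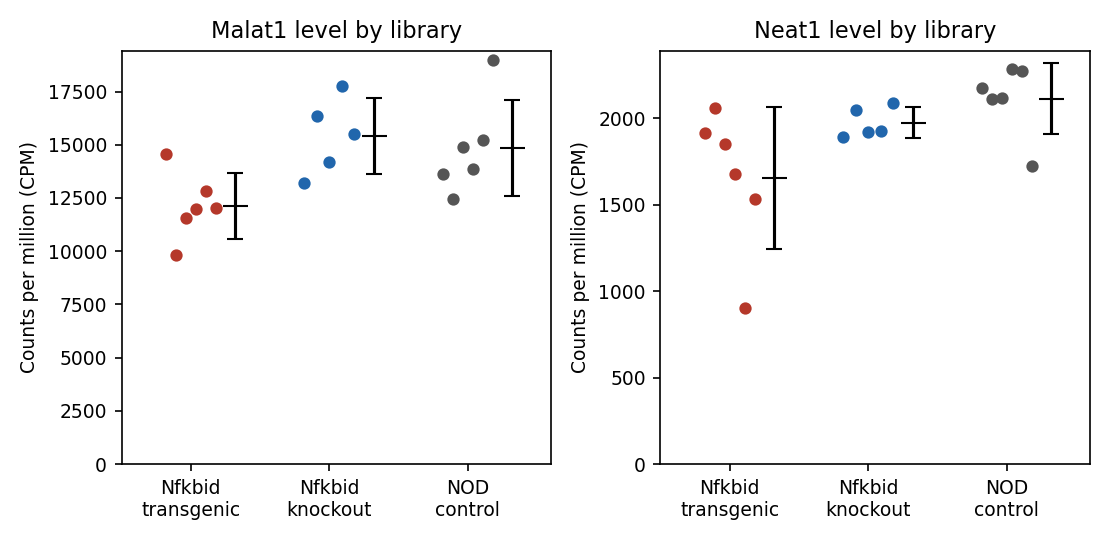
CPM of Malat1 (left) and Neat1 (right) in each library of Nfkbid transgenic (n = 6), Nfkbid knockout (n = 5) and NOD control (n = 6) Tregs. Points are libraries, and the bar beside them is the mean ± SD. Malat1 means are 12134, 15404 and 14841 CPM, Neat1 means are 1655, 1974 and 2113 CPM, and all groups overlap.

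In none of the 3 comparisons did edgeR's test call either member. It called 739 of 9986 rows (7.4%) for transgenic against control, with 5.23% of rows higher and 2.17% lower. For knockout against control it called 189 (1.89%), with 0.881% higher and 1.01% lower, and for transgenic against knockout 1065 (10.7%), with 6.34% higher and 4.33% lower. At an unadjusted p under 0.05 there were 1913, 2238 and 2509 rows, and of the members only Malat1 in transgenic against knockout was among them. DESeq2 called Malat1 in that comparison and neither member in the other ones. The 3 comparisons share libraries, so they are not independent. Within groups Malat1 had an SD of 0.25 and Neat1 an SD of 0.31 in log2 CPM, against a median of 0.2 among the 582 rows whose average log2 CPM was 8 or more. Of those rows 66.5% had a smaller SD than Malat1 and 83.7% a smaller SD than Neat1.

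**Figure D2:**
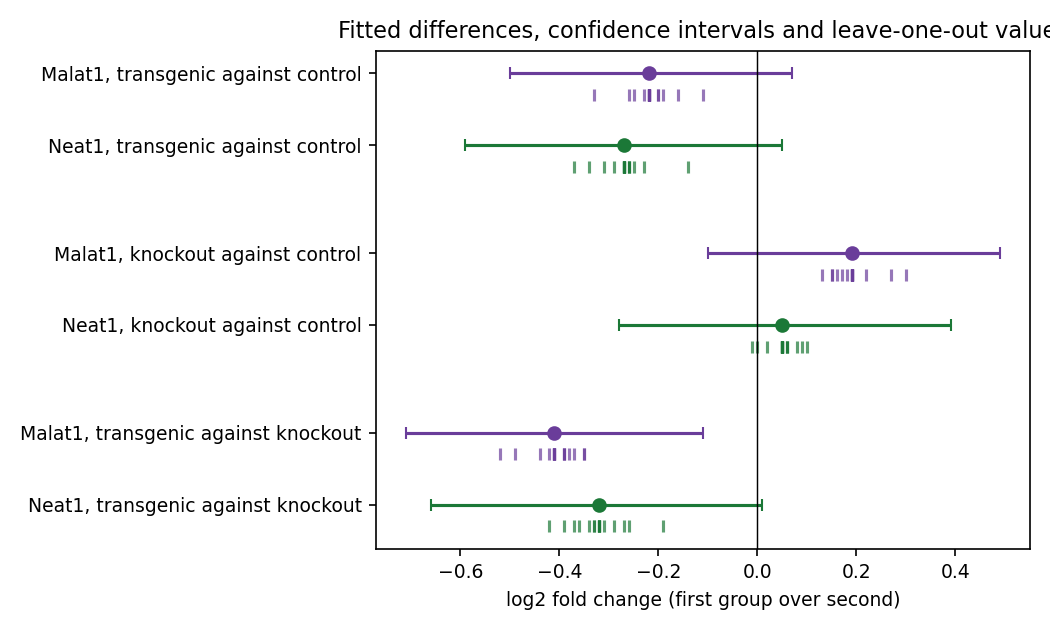
Fitted log2 fold changes of Malat1 (purple) and Neat1 (green) in the 3 comparisons, first group over second. Circles are edgeR estimates from all 17 libraries, lines are 95% intervals, and the ticks under each line are the estimates with 1 library left out in turn. The interval excludes 0 only for Malat1 in transgenic against knockout, at -0.71 to -0.11.

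The share of all counts held by the pair together was smaller in transgenic Tregs. It averaged 1.38 ± 0.149% in transgenic (SD, n = 6), 1.74 ± 0.183% in knockout (SD, n = 5) and 1.7 ± 0.209% in control libraries (SD, n = 6). The transgenic libraries held 1.19 to 1.65% with a median of 1.36%. The knockout libraries held 1.51, 1.84, 1.61, 1.97 and 1.76%, and the control libraries 1.46 to 2.07% with a median of 1.66%. In each comparison with the transgenic group, 5 of the 6 transgenic libraries lay below every library of the other group, and replicate 1, at 1.65%, lay inside its range.

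By two-sided exact permutation tests over libraries the share fell by 0.317 percentage points in transgenic against control (p = 0.00866, adjusted over 6 tests p = 0.026). It fell by 0.359 points in transgenic against knockout (exact p = 0.00866, adjusted p = 0.026). The smallest p these designs allow is 0.00216, both with 6 against 6 and with 5 against 6 libraries. For knockout against control the difference was 0.042 points (exact p = 0.723, adjusted p = 0.846). Most of the share is Malat1, with 1.21 ± 0.156% in transgenic, 1.54 ± 0.179% in knockout and 1.48 ± 0.224% in control libraries. Neat1 held 0.165 ± 0.0412%, 0.197 ± 0.0088% and 0.211 ± 0.0206%.

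These calls on the share were lost when any of several single libraries was left out. Without transgenic replicate 1 they were kept, at -0.370 points against control and -0.412 points against knockout (exact permutation test, adjusted p = 0.0238 for both). Against control the exact test missed the threshold without any 1 of transgenic replicates 2 to 6 (differences of -0.316 to -0.278 points, adjusted p = 0.0714) and without control replicate 3 (-0.315, adjusted p = 0.0584), 4 (-0.333, adjusted p = 0.0519) or 5 (-0.306, adjusted p = 0.0584). Against knockout the exact test missed it without any 1 of transgenic replicates 2 to 6 (-0.358 to -0.320, adjusted p = 0.0714) and without knockout replicate 4 (-0.301, adjusted p = 0.0857). Only comparisons that hold the library left out are given here, though the 6 tests are adjusted together. A library outside a comparison can thus also move its adjusted p. Without knockout replicates 2, 3 and 5, transgenic against control kept its exact p of 0.00866 but had an adjusted p of 0.0519. With mitochondrial rows left out of the total the differences were -0.396 against control (adjusted p = 0.0714) and -0.547 against knockout (adjusted p = 0.0519) by the same exact test. Mitochondrial rows held 19.66 to 24.81% of counts in transgenic libraries, 22.04 to 28.16% in knockout libraries and 20.0 to 24.05% in control libraries. Transgenic replicate 1 and control replicate 6, the highest of their groups in Malat1, had the highest mitochondrial shares of their groups, 24.81% and 24.05%. In knockout libraries the highest Malat1, in replicate 4, went with 22.55%, below the 28.16% of replicate 5. Both stroma and endothelium markers fell in transgenic against control, where 2.17% of all rows were lower. Their log2 fold changes were -0.37 for Col1a1 and -0.64 for Pecam1 (edgeR adjusted p = 0.0449 and 0.00522). In transgenic against knockout they had -0.27 and -0.38 and were not called (edgeR adjusted p = 0.146 and 0.11). That list summed to 106.6 to 143.0 CPM in transgenic and 155.9 to 195.9 CPM in control libraries. In transgenic against knockout, where 6.34% of all rows were higher, 1 of 3 tested B cell markers was called higher, Ighm. It held 1.49 to 10.3 CPM in transgenic and 0.0 to 3.1 CPM in knockout libraries (edgeR adjusted p = 0.0103). The dendritic cell marker Flt3 was called lower, with 2.98 to 7.43 CPM in transgenic and 5.4 to 16.8 CPM in knockout libraries (edgeR adjusted p = 0.0161). The part of mitochondrial RNA or of other cells in the share was not tested, and in bulk RNA fewer cells of a kind and less RNA per cell cannot be told apart.

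**Figure D3:**
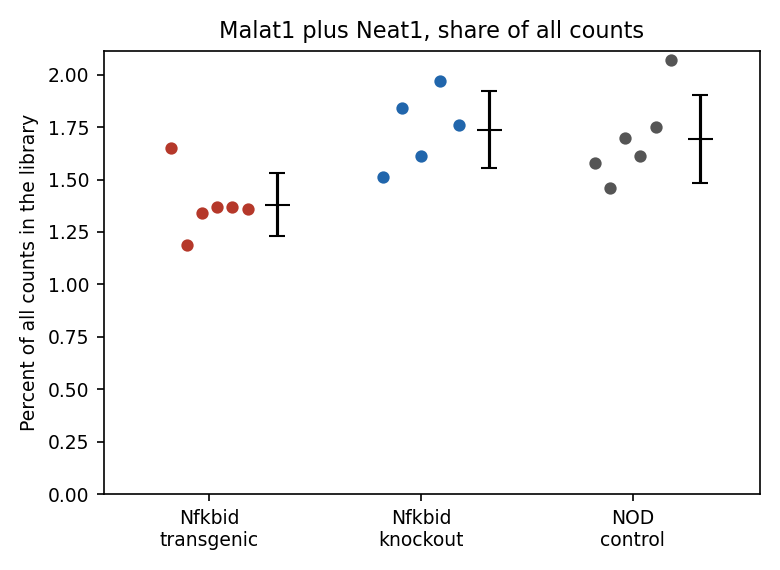
Malat1 plus Neat1 as a percent of all counts in each library, for Nfkbid transgenic (n = 6), Nfkbid knockout (n = 5) and NOD control (n = 6) Tregs. Points are libraries, and the bar beside them is the mean ± SD. Of the 6 transgenic libraries 5 lie below every knockout and control library, and 1 lies among them at 1.65%.

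No link between the levels of Neat1 and Malat1 was detected from library to library. The count ratio of Neat1 to Malat1 averaged 0.14 ± 0.0456 in transgenic (SD, n = 6), 0.129 ± 0.0133 in knockout (SD, n = 5) and 0.146 ± 0.0288 in control libraries (SD, n = 6). Transgenic libraries ran from 0.0701 (replicate 5) to 0.21 (replicate 2), wider than the knockout range of 0.108 to 0.143. On the log2 scale the ratio differed by -0.107 in transgenic against control, -0.152 in knockout against control and 0.045 in transgenic against knockout, with exact permutation p values of 0.68, 0.394 and 0.846 (adjusted p = 0.846, 0.788 and 0.846). Without control replicate 6, the control library with the highest Malat1 and the lowest Neat1, the knockout difference from control was -0.28 and past the threshold (exact permutation test, adjusted p = 0.039). Without transgenic replicate 5 the transgenic difference from control was 0.08, and the difference from knockout 0.23. The difference from knockout was -0.09 without transgenic replicate 2, -0.01 without transgenic replicate 3 and -0.02 without knockout replicate 4.

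Across all 17 libraries, with each group's mean taken off, TMM-scaled log2 CPM of Malat1 and Neat1 had Pearson's r of 0.09 (permutation p = 0.743) and Spearman's rho of 0.07 (p = 0.817). Without the 2 libraries farthest from the Malat1 median, control replicate 6 and knockout replicate 2, r was 0.18. With library totals alone it was -0.31. Leaving out 1 library at a time gave -0.21 (without transgenic replicate 1) to 0.25 (without transgenic replicate 5). Within the 6 control libraries r was -0.89 (exact permutation p = 0.0861, adjusted over 3 relations p = 0.258) and rho was -0.6 (exact p = 0.242), and without the 2 farthest libraries r was -0.65. Within the 6 transgenic libraries r was 0.08 (exact permutation p = 0.863, adjusted p = 0.863) and rho was -0.14 (exact p = 0.803), and without the 2 farthest r was -0.99 over 4 libraries. No relation passed the threshold, and the transgenic value rests on those 2 libraries. No correlation was computed within the 5 knockout libraries.

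**Figure D4:**
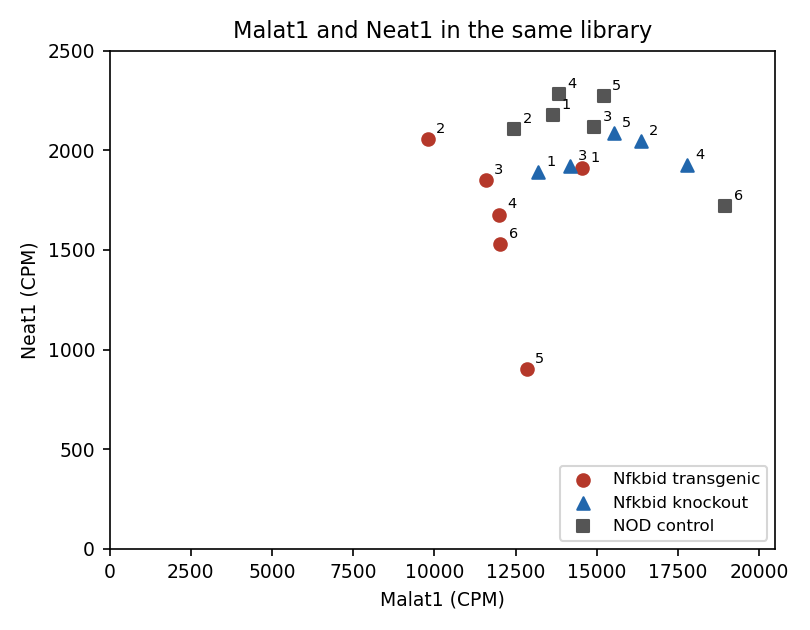
Malat1 (horizontal axis) against Neat1 (vertical axis) in CPM, 1 point per library, numbered by replicate. Circles are Nfkbid transgenic, triangles Nfkbid knockout and squares NOD control libraries. Transgenic replicate 5 lies lowest in Neat1 at 900.8 CPM, and control replicate 6 combines the highest Malat1, 18956 CPM, with the lowest control Neat1, 1721 CPM.

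Of the proteins that build the bodies around these RNAs, 2 of 13 tested paraspeckle rows and none of 13 tested speckle rows were called by edgeR in transgenic against control, where 7.4% of all rows were called. Of 18 paraspeckle proteins 13 had rows that passed the filter on low counts. For transgenic against control, where 5.23% of all rows were higher, 2 rose: Rbm14, a coactivator needed for paraspeckle assembly, by 0.38 (SE 0.12, edgeR adjusted p = 0.0477), and Taf15, a FET family RNA-binding protein, by 0.82 (SE 0.21, edgeR adjusted p = 0.0208). Rbm14 averaged 392.0 ± 22.3 CPM in transgenic, 337.0 ± 35.6 in knockout and 316.4 ± 41.1 CPM in control libraries. Taf15 averaged 20.2 ± 3.73 CPM in transgenic, 12.9 ± 2.9 in knockout and 12.1 ± 3.46 CPM in control libraries. No member passed in the other comparisons. The list's median log2 fold change was 0.05, 0.07 and 0.05 for transgenic against control, knockout against control and transgenic against knockout, beside medians of -0.01, -0.02 and -0.00 over all rows tested. The core proteins Sfpq, Nono and Pspc1, which bind Neat1 directly, were not called. Their log2 fold changes for transgenic against control were -0.06, -0.06 and 0.06.

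Of 23 nuclear speckle and splicing proteins 13 rows were tested, and none passed in any comparison. The smallest p belonged to Ddx39b, a helicase of splicing and mRNA export, with log2 fold changes of 0.46 for transgenic against control, 0.65 for knockout against control and -0.2 for transgenic against knockout (edgeR adjusted p = 0.184, 0.0835 and 0.594). Its levels were 1574 ± 366.9 CPM in transgenic, 1709 ± 464.7 in knockout and 1220 ± 77.8 CPM in control libraries. Son and Srrm2, which form the core of speckles, had 0.07 and -0.04 for transgenic against control. The list's medians were 0.01, 0.08 and -0.07 in the 3 comparisons, and the U2af1 row was at 0 in every library. The rows of Srsf1, Srsf2, Srsf5 and Srsf6 reached 1.96 CPM at most and were not tested.

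Of 12 genes that process the Malat1 3′ end, subunits of RNase P and the enzymes that trim and extend mascRNA, 5 rows were tested. For transgenic against control, where 5.23% of all rows were higher, 1 of the 5 rose: Rpp25, an RNase P subunit, by 0.66 (SE 0.17, edgeR adjusted p = 0.0212). It averaged 81.8 ± 17.2 CPM in transgenic, 62.4 ± 13.0 in knockout and 54.8 ± 3.15 CPM in control libraries. None passed in the other comparisons. The medians of these 5 rows were 0.2, 0.34 and -0.19. The row of Elac2, the RNase Z that cuts the other end of mascRNA, was at 0 in every library.

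Other long noncoding RNAs were listed for comparison, 33 in all, of which 29 had a row, 4 of these at 0 in every library, and 15 were tested. For transgenic against knockout, where 6.34% of all rows were higher, 1 of the 15 rose: Firre, an X-linked RNA that anchors chromatin, by 1.1 (SE 0.28, edgeR adjusted p = 0.0142), with 17.7 ± 5.53 CPM in transgenic, 7.87 ± 2.93 in knockout and 14.9 ± 5.41 CPM in control libraries. None passed in the comparisons with control. The list's medians were -0.03, 0.06 and -0.11. Tug1, another widely expressed long noncoding RNA, had log2 fold changes of 0.07, 0.18 and -0.11, and Flicr, an RNA beside Foxp3 that acts on it in mouse Tregs, had -0.24, -0.49 and 0.25. None of these was called.

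Around the pair, 21 further rows lie within 100 kb of either gene. Of these 6 were at 0 in every library, where 3 counts correspond to 0.635 to 0.957 CPM, and 14 were tested. The 6 rows at 0 include small RNAs annotated inside or beside the members, such as Gm27694 within Malat1 and Gm28006 within Neat1. They also include Gm37376, which lies within Malat1 on the plus strand. What that row tells of strand in the counting was not tested. Only Kcnk7, a potassium channel gene, passed: it fell by 0.63 on the log2 scale in transgenic against knockout, where 4.33% of all rows were lower (SE 0.19, edgeR adjusted p = 0.0332). It held 35.0 ± 5.99 CPM in transgenic, 51.3 ± 11.6 in knockout and 43.5 ± 5.2 CPM in control libraries. The Frmd8 row, next to Neat1 on the same strand, was the most abundant neighbour, with 914.8 ± 121.7 CPM in transgenic, 1186 ± 186.2 in knockout and 1049 ± 84.2 CPM in control libraries. Its log2 fold changes were -0.12, 0.34 and -0.45 for transgenic against control, knockout against control and transgenic against knockout (edgeR adjusted p = 0.75, 0.199 and 0.0587), beside -0.22, 0.19 and -0.41 for Malat1. Frmd8os, the antisense row that starts near the Neat1 start, had -0.08, -0.74 and 0.66, and none was called. No source used here states whether counting used strand, so reads of overlapping Frmd8 and Frmd8os cannot be told apart.

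**Figure D5:**
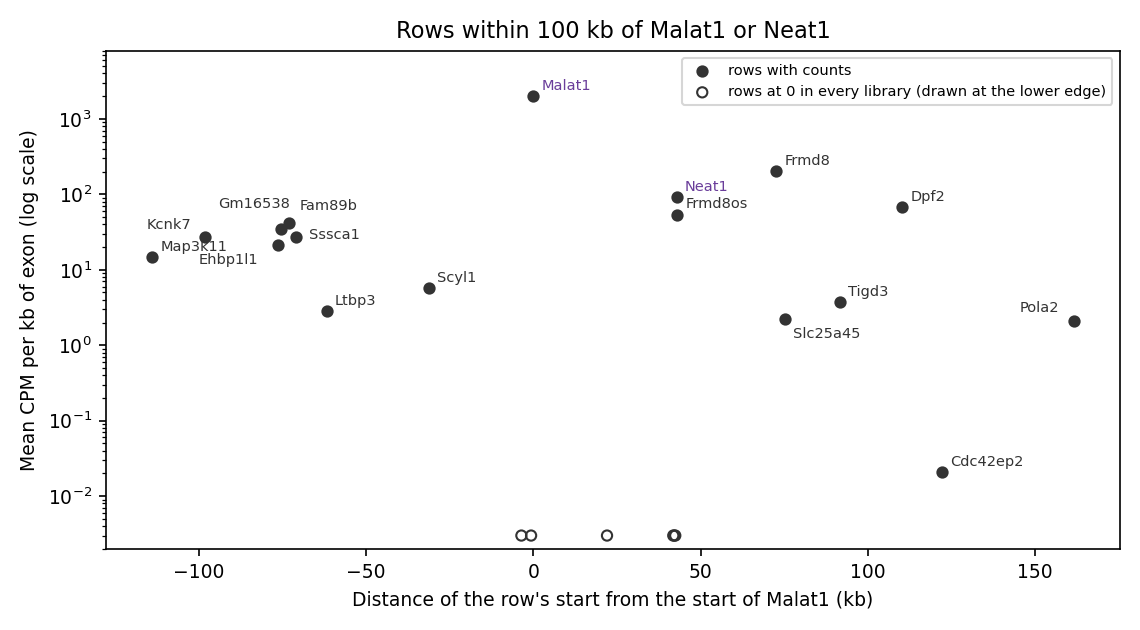
Mean level over 17 libraries, in CPM per kb of exon on a log axis, of each row within 100 kb of Malat1 or Neat1, against the distance of its start from the Malat1 start in kb. Filled points are rows with counts, and open points at the lower edge are the 6 rows at 0. Malat1 stands highest at 2012 CPM per kb, above Frmd8 at 205.0 and Neat1 at 92.0.

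The rows that varied most like each member within groups differed between them. Likeness was Pearson's r of log2 CPM after each group's mean was taken off, over 17 libraries and 2897 rows, and is given as a description, since all rows share the libraries and their scaling. For Malat1 the nearest were Cul4a (r = 0.84), a cullin scaffold of ubiquitin ligases, Vsig10 (0.81), Mettl18 (0.81), a histidine methyltransferase, Mtcl1 (0.8), a microtubule regulator, and Atg3 (0.8), an autophagy enzyme. For Neat1 they were Gapdh (r = 0.91), the glycolytic enzyme, Tmem134 (0.82), Ube2o (0.82), a ubiquitin-conjugating enzyme, Leng8 (0.79) and Ogt (0.78), the O-GlcNAc transferase. With any 1 library left out these values stayed at 0.7 or above for Malat1 and 0.74 or above for Neat1. The rows were picked for the highest r in these same libraries, so this does not test the likeness. The other member was not near: with r = 0.09, 52.3% of rows were more like Malat1 than Neat1 was, and 53.0% more like Neat1 than Malat1 was.

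Of these 10 rows 2 were called, both in transgenic against knockout, where 10.7% of all rows were called. Mettl18 fell by 0.44 on the log2 scale (edgeR adjusted p = 0.0157), with 1597 ± 146.0 CPM in transgenic, 2069 ± 90.1 in knockout and 2156 ± 136.1 CPM in control libraries. Leng8 fell by 0.45 (edgeR adjusted p = 0.00748), with 1218 ± 92.8 CPM in transgenic, 1583 ± 82.9 in knockout and 1589 ± 184.4 CPM in control libraries. Against control they had -0.36 and -0.31 in transgenic libraries (edgeR adjusted p = 0.0511 and 0.0728). The Gapdh row had -0.05, 0.03 and -0.08 in the 3 comparisons, with 213.1 to 296.0 CPM in transgenic libraries, 251.1 to 281.5 CPM in knockout libraries and 250.0 to 324.9 CPM in control libraries.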

How the data were processed

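Expected counts per gene were deposited by the authors for 17 libraries of sorted Tregs. Per the labels' protocols, poly(A) RNA was sequenced in 67 bp reads carrying a 9 bp molecular identifier. Bowtie2 and GRCm38 are named in the submitters' processing notes, and Ensembl 102 transcripts in the series text. No source used here says whether duplicates were removed by identifier, and floors cover counting error only. Of the deposited values 5.87% were not exactly whole, with no tolerance, and all were rounded. Rows were matched to GENCODE M21 (47224 of 47643).

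Fold changes came from edgeR 4.0.16 (R 4.3.3) with its quasi-likelihood F test, TMM factors, filterByExpr and all 17 libraries in 1 fit, with Benjamini-Hochberg adjustment over 9986 rows and a threshold of 0.05. CPM in the text is a count scaled by the library total. Share and ratio were compared by exact permutation tests, adjusted over 6 tests, and the correlation over 17 libraries used 100000 permutations. The fit was tested on simulated data.

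The members, marker lists and gene lists were chosen with earlier results of these data known. Named rows are the members, all rows within 100 kb, the 5 rows most like each member among those whose average log2 CPM was 5 or more, and of each list the called members, at most 4, or else its smallest p. Sfpq, Nono, Pspc1, Son, Srrm2, Tug1 and Flicr were added for their known roles, and Nfkbid, Col1a1, Pecam1, Ighm and Flt3 as checks, after values were seen. Of 16 pairs of same-numbered libraries 1 correlated above 0.1 (range -0.517 to 0.364). No pairing by number was seen, though libraries that stand apart in their group weigh on these correlations, which cannot exclude it. No 2 libraries of 1 group agreed within sampling noise. Other scalings, filters, DESeq2 1.42.0, limma 3.58.1 with voom, 2-group fits, a replicate block, no mitochondrial rows and each library left out were tried.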

Additional observations from a re-analysis of the deposited data

Results flagged for a closer look

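Control replicate 6 stood apart from the other 5 control libraries in 2 measures. Its Neat1 level was 1721 CPM, and its Neat1 to Malat1 count ratio was 0.0908. In both, the gap to the nearest control library was a larger part of the whole range than Dixon's critical value of 0.625 allows, at 0.69 for the level and 0.653 for the ratio. The ratio contains the Neat1 count, so these are not separate signals. In all, 2 of 12 sets of values were marked in this way, and chance marks about 1 in 20. Its Malat1 level, the highest of the controls, had a gap of 0.575 and its share of both RNAs a gap of 0.521, below that value, and transgenic replicate 5, the lowest library in Neat1, had a gap of 0.545.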

How the results depend on the processing

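Of 358 alternative values of 16 results, those below changed a call, a direction or a count. Malat1 in transgenic against knockout became called at -0.45 (upper quartile), -0.34 (library totals) and -0.42 (DESeq2). Neat1 in knockout against control turned to -0.10 with library totals and to -0.15 without knockout replicates 2, 3 and 5, the libraries with fewest rows above 0, which was chosen after seeing the data. The share in transgenic against control lost its call at -0.396 without mitochondrial rows and -0.296 by medians. Against knockout it did so at -0.547 and -0.400. Without those 3 libraries it was -0.360 against knockout, where the smallest exact p that 6 against 2 libraries allow, 0.0357, would adjust to 0.107 beside the other 5 tests, so that loss says nothing about stability. The correlation was -0.31 with library totals. Rows called in knockout against control were 571 unfiltered, 573 by DESeq2, 76 with 2 groups and 43 without those 3 libraries. In transgenic against control they were 1226 and 1348 with the last 2, and in transgenic against knockout 632 with 2 groups. The cause of the other changes was not tested.

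With the replicate number as a block the share differed by -0.317 (transgenic against control) and -0.354 (against knockout) and was not called. The smallest p of the sign flips behind it is 0.0312 with 6 pairs and 0.0625 with 5 pairs, which drop replicate 6, and no result could adjust below 0.0625 over 6 tests, so that loss was fixed by the design. With the block 67 rows were called in knockout against control and 670 in transgenic against knockout. The block changed no call of Malat1 or Neat1 in edgeR's fit.

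With 1 library left out, Malat1 ranged from -0.33 to -0.11, 0.13 to 0.30 and -0.52 to -0.35 in transgenic against control, knockout against control and transgenic against knockout, and Neat1 from -0.37 to -0.14, -0.01 to 0.10 and -0.42 to -0.19. The ratio ranged from -0.24 to 0.08, -0.28 to -0.09 and -0.09 to 0.23, and the share from -0.370 to -0.242, -0.015 to 0.117 and -0.416 to -0.301. Rows called were 529 to 876, 88 to 1124 and 735 to 1641, and the correlation -0.21 to 0.25.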
